A study of Mus musculus with 2 samples.

Results

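Chromatin accessibility was examined around 10 genes of the Wnt pathway in NMuMG cells, an epithelial line from the normal mouse mammary gland, in a study that asked how TGFβ changes open chromatin early in its response. The genes were the ligands Wnt5a, Wnt5b, Wnt7b, Wnt9a and Wnt11, the receptor Fzd7, the transducer Ctnnb1, the nuclear factors Lef1 and Tcf7l2 and the feedback gene Axin2. They were chosen by name, and a peak of open chromatin belonged to a gene if it overlapped the annotated gene or the 50 kb on either side of it. This rule took in 27 of the 17784 peaks in the vehicle list and 36 of the 22600 in the TGFβ 2 h list, and the 10 genes were a part of 22350 coding genes.

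Both samples came from the same unmodified cell line, held for 6 h without serum or insulin. One then received TGFβ1 at 5 ng/ml for 2 h and the other only the HCl and BSA carrier of the cytokine for the same time (vehicle). DNaseI-seq, which sequences the ends of DNA released by a brief DNaseI digestion of nuclei, gave 1 deposited peak list per condition. There was therefore no replicate, no test between the conditions and no read depth in the files, and every difference is one between these 2 lists. A peak with at least 1 bp in common with a peak of the other list is called shared, and the others vehicle-only or TGFβ 2 h-only. These names say in which list a peak was called, not that signal was missing in the other condition. Promoter peaks overlapped the 1000 bp on either side of an annotated start site, and all others are called distal. As a check of the cell type, 4 of 6 epithelial marker genes (Cdh1, Krt8, Krt18 and Krt19, but not Epcam or Cldn7) had a promoter peak in both lists, and 0 of 7 markers of blood, endothelial, muscle and neuronal cells had one in either.

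Wnt proteins are secreted glycoproteins that bind Frizzled receptors. In the canonical branch this stops the destruction of β-catenin, which then enters the nucleus and activates genes together with factors of the TCF/LEF family, among them Axin2, whose product restores β-catenin destruction. Other ligands, Wnt5a and Wnt11 among them, mostly act without β-catenin, on cell shape and movement. In the mammary gland Wnt signals act in duct growth and in stem cells, and Wnt and TGFβ signals both take part in the epithelial-mesenchymal transition.

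The sequences of the regions on which the results turn are shown first, all on the plus strand of mm9, in lower case with the letters of a motif in capitals. Each motif was searched on both strands, so its reverse complement counted too. The AP-1 motif was TGAGTCA, which reads the same on the other strand but for its middle base. The TCF/LEF motif was ATCAAAG, and a T in place of the first A was also accepted. The SMAD motif was CAGACA or the palindrome GTCTAGAC, which do not overlap each other. The TEAD motif was GGAATG. Around Axin2 they are the central part of its only TGFβ 2 h-only peak, with an AP-1 and a TEAD match in capitals, and the letters around both TCF/LEF matches of its promoter peak, which was shared.
Axin2 upstream peak, chr11:108759546-108759845: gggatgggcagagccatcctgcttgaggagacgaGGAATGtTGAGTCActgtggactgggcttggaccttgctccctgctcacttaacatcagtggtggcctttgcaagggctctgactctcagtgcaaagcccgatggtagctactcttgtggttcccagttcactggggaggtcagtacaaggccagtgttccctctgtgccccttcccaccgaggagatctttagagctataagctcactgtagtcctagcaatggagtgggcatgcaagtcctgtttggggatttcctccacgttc
Axin2 promoter, first match, chr11:108781731-108781757: gccggctgcgCTTTGATaaggtcctgg
Axin2 promoter, second match, chr11:108782094-108782120: cggctcgcgcCTTTGAAgtgcacagtt

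For Tcf7l2 and Lef1 the regions are TGFβ 2 h-only peaks inside introns, with 1 shared intron peak of Tcf7l2 for comparison. The highest-scoring of the TGFβ 2 h-only peaks of Tcf7l2 held none of the letters searched. Capitals mark AP-1 in Tcf7l2 and SMAD in Lef1.
Tcf7l2 intron, TGFβ 2 h-only, chr19:55843434-55843733: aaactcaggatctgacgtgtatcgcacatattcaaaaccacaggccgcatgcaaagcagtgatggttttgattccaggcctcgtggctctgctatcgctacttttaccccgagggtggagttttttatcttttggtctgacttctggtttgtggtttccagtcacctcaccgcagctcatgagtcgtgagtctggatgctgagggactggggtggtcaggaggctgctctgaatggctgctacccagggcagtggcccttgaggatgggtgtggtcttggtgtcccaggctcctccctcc
Tcf7l2 intron, TGFβ 2 h-only, chr19:55869981-55870199: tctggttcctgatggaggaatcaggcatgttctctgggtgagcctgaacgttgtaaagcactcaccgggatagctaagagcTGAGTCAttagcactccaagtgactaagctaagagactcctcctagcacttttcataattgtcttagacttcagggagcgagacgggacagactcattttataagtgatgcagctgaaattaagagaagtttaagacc
Tcf7l2 intron, shared, chr19:55940259-55940558: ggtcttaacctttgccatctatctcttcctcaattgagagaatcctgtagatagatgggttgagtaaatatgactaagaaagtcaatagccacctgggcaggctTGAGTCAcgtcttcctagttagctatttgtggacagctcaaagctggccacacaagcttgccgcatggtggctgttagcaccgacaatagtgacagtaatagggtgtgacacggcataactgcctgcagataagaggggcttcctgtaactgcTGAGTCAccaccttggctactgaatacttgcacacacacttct
Lef1 intron, TGFβ 2 h-only, chr3:130893984-130894275: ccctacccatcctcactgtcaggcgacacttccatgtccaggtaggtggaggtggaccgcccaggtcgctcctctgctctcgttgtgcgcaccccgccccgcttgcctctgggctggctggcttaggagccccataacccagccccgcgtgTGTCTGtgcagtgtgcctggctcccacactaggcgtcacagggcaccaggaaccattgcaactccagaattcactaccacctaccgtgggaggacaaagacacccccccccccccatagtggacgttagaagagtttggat
Lef1 intron, TGFβ 2 h-only, chr3:130917830-130918090: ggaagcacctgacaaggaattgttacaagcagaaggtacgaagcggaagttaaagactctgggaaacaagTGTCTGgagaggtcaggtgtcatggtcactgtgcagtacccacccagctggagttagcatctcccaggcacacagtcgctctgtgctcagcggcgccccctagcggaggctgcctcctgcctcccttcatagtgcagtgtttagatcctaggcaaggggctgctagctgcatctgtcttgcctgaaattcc

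At Wnt9a the peak nearest to the start of the gene lay at another place in each list, so the vehicle and TGFβ 2 h regions are given together. The last pair are a shared peak far upstream of Wnt11 with a TCF/LEF match and the vehicle-only peak downstream of Fzd7 with an AP-1 and a TEAD match. The Wnt9a promoter stretch holds no AP-1 letters, and the AP-1 match of the Wnt9a intron is in capitals.
Wnt9a promoter, vehicle-only, chr11:59120130-59120429: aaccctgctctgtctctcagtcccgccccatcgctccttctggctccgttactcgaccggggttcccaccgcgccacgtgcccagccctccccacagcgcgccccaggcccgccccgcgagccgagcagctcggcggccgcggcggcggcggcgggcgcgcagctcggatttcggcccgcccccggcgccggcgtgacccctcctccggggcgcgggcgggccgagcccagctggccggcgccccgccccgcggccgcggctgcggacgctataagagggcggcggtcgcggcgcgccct
Wnt9a intron, TGFβ 2 h-only, chr11:59121621-59121920: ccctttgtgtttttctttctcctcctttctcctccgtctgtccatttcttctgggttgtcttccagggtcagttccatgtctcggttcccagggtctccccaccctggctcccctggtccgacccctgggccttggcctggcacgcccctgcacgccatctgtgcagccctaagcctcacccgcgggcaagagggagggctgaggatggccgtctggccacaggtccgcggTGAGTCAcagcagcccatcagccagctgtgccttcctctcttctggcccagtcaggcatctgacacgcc
Wnt11 upstream, shared, chr7:105937267-105937466: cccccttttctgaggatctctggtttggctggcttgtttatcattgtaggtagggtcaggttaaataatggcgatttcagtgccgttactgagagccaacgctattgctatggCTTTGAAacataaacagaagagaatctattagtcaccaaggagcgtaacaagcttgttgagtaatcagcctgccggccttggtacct
Fzd7 downstream, vehicle-only, chr1:59544540-59544839: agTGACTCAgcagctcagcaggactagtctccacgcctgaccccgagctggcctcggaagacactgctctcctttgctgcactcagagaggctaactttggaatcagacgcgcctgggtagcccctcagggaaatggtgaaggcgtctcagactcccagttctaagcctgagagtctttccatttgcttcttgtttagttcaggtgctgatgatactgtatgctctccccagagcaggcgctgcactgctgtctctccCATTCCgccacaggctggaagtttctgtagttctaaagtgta

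Of the 36 TGFβ 2 h peaks of these genes, 13 were TGFβ 2 h-only (36.1%, Wilson 95% interval 22.5 to 52.4), against a background of 33.7% of all TGFβ 2 h peaks. Of the 27 vehicle peaks, 6 were vehicle-only (22.2%, interval 10.6 to 40.8), against 17.6% of all vehicle peaks. Both shares were near those of the whole lists. The intervals cover the counting of peaks alone and hold no variation between cultures or libraries. When the TGFβ 2 h list was cut by score to the length of the vehicle list, there were 27 peaks in each, of which 7 were TGFβ 2 h-only (25.9%) and 8 vehicle-only (29.6%), and 4 genes had more TGFβ 2 h than vehicle peaks. The shares over all peaks were not computed at this cut, and 33.7% and 17.6% belong to the uncut lists. A shorter TGFβ 2 h list can only raise the vehicle-only number.

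By role, the nuclear factors Lef1 and Tcf7l2 held 7 vehicle and 15 TGFβ 2 h peaks. Of the latter 7 were TGFβ 2 h-only (46.7%, interval 24.8 to 69.9), 5 of them in Tcf7l2, and 0 of the 7 vehicle peaks were vehicle-only (interval up to 35.4%). The 5 ligands held 14 peaks in each list, of which 4 were TGFβ 2 h-only (28.6%, interval 11.7 to 54.6) and 5 vehicle-only (35.7%, interval 16.3 to 61.2). Each of these intervals holds the share of the whole list, 33.7% or 17.6%, and no difference between roles was tested. Fzd7 and Ctnnb1 held 5 peaks in each list, with 1 unshared peak of either kind. Axin2 had 1 vehicle peak and 2 TGFβ 2 h peaks. With the TGFβ 2 h list cut to the vehicle length, the nuclear factors had 4 TGFβ 2 h-only peaks, and no share over all peaks was computed at that cut. The windows differ in length, which bears on every number of peaks per gene.

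**Figure D1:**
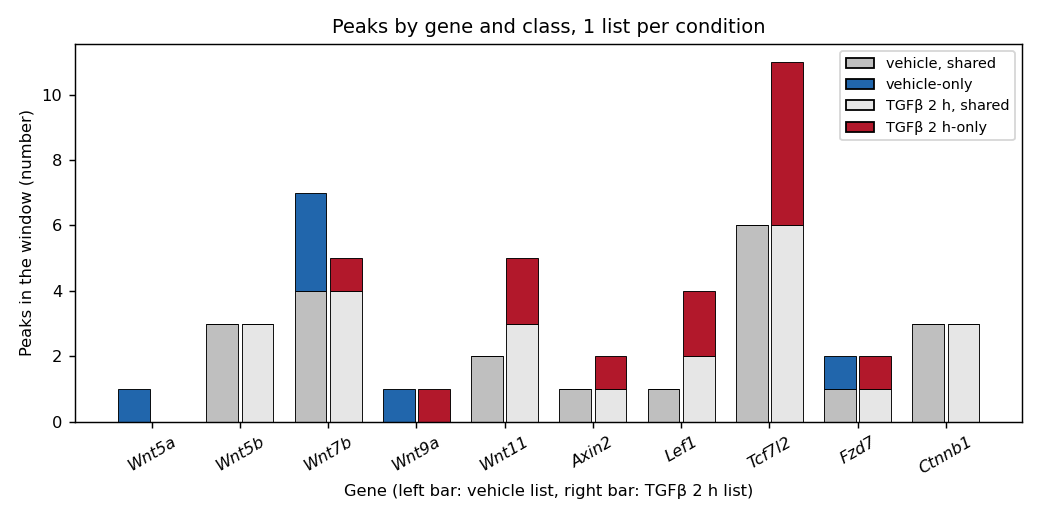
Number of DNaseI-seq peaks in the window of each gene, left bar vehicle and right bar TGFβ 2 h, with shared peaks in grey, vehicle-only in blue and TGFβ 2 h-only in red (1 list per condition, so no error bars). Tcf7l2 had 6 vehicle and 11 TGFβ 2 h peaks, and the blue parts lie in Wnt5a, Wnt7b, Wnt9a and Fzd7.

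Gene by gene, Wnt11, Axin2, Lef1 and Tcf7l2 had more peaks in the TGFβ 2 h list than in the vehicle list, 4 of 10 genes beside 33.7% of all coding genes and 43.5% of those with any peak in their window. Wnt5b, Wnt9a, Fzd7 and Ctnnb1 had equal numbers. Wnt5a and Wnt7b had fewer, 2 of 10 beside 13.2% and 17.1%. A TGFβ 2 h-only peak occurred near 7 of the 10 genes, where 40.5% of all coding genes and 52.4% of those with a peak had one. That number was 4 with a window of 20 kb and 5 with the TGFβ 2 h list cut to the vehicle length or with a tolerance of 1000 bp. It was 9 with a window of 100 kb or a reciprocal overlap of 50%. When peaks below the median score of their list were dropped it was 2, Axin2 and Tcf7l2. The Tcf7l2 peaks counted there were shared peaks whose partner was dropped. Shares of all coding genes were not computed at these settings. In the main setting a vehicle-only peak occurred near 4 of the 10 genes, where 25.9% of all coding genes and 33.5% of those with a peak had one.

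At their own start sites the 10 genes fell into 4 classes. Axin2, Tcf7l2, Fzd7 and Ctnnb1 had a promoter peak in both lists, as did 43.8% of all coding genes and 56.6% of those with any peak in their window. Wnt7b had one in the TGFβ 2 h list only, a pattern of 2.46% of coding genes (3.18% of those with a peak). Wnt9a had one in the vehicle list only, a pattern of 1.85% (2.39% of those with a peak). Wnt5a, Wnt5b, Wnt11 and Lef1 had none in either list. With the 1000 bp bound, the receptor, the transducer, Tcf7l2 and the feedback gene were thus called open at the start in both conditions. Neither Lef1 nor any ligand was. Both 1-list patterns turn on this bound. The TGFβ 2 h peak of Wnt9a (midpoint 1.25 kb from the start) and the vehicle peak of Wnt7b (midpoint 1.56 kb from it) lay just outside.

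**Figure D2:**
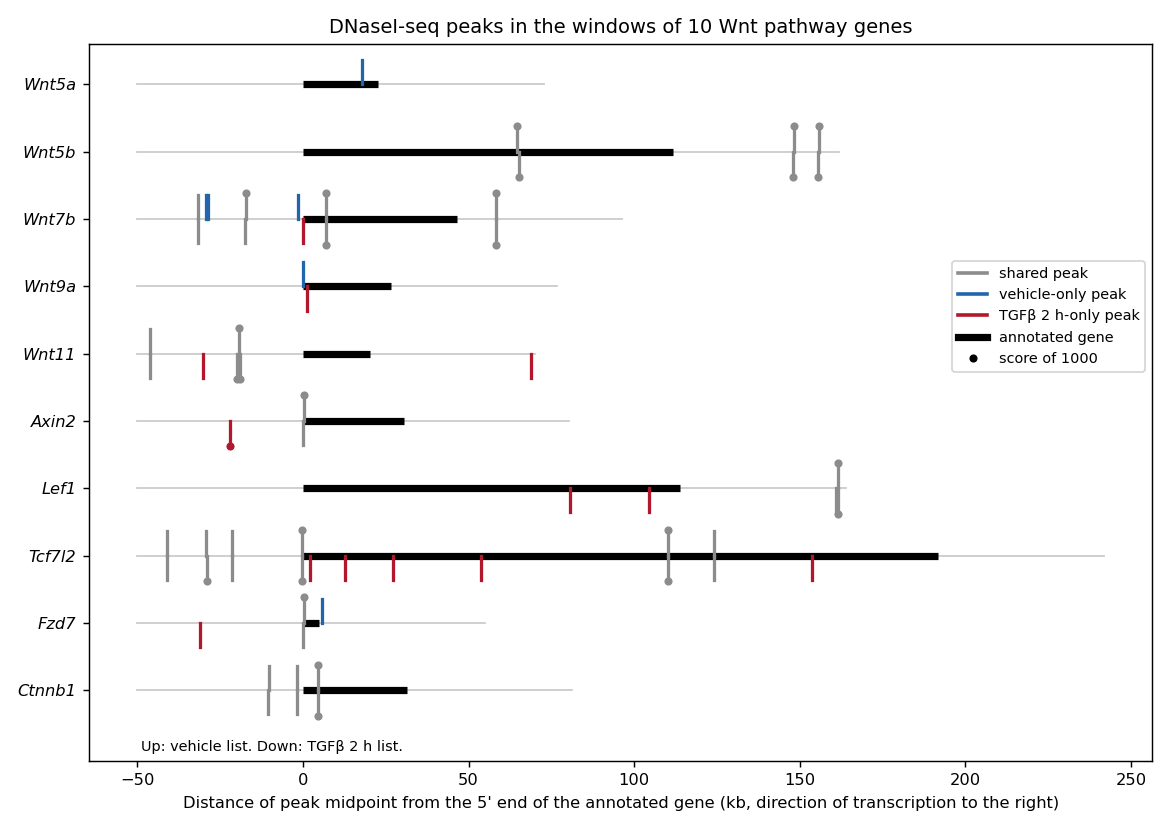
Position of each peak midpoint relative to the 5′ end of the annotated gene, in kb along the direction of transcription, with vehicle peaks drawn upward and TGFβ 2 h peaks downward. Grey lines are shared peaks, blue vehicle-only, red TGFβ 2 h-only, a dot marks a score of 1000, black bars are the annotated genes and thin lines their windows. The 5 red lines of Tcf7l2 all lie inside the gene, and the only red line with a dot is the one upstream of Axin2.

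Wnt5a, a ligand of the β-catenin-independent branch on chromosome 14 (29317936 to 29340633), had a single peak in the vehicle list and 0 in the TGFβ 2 h list. The vehicle-only peak at chr14:29335715-29336082 was 368 bp wide, lay over a coding exon of Wnt5a and scored 589, above only 7.68% of its list. The nearest TGFβ 2 h peak was 655521 bp away. Scores are the authors' whole numbers from 540 to a ceiling of 1000. Whether they measure signal or reproducibility, and whether their scale is common to both lists, was not established. Each is therefore read by the share of its own list that scored lower. At the ceiling that share was 46.8% for vehicle and 55.7% for TGFβ 2 h.

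Wnt5b, its close paralogue on chromosome 6 (119382549 to 119494336), had 3 peaks in each list, all shared and all at the score ceiling, and none at its own start. One lay at the start of the neighbour Adipor2, an adiponectin receptor gene (chr6:119338034-119339159 with vehicle). Another lay in an intron of Adipor2. The remaining peak lay at the start of Fbxl14, an F-box protein gene that lies within the annotated span of Wnt5b, and measured 1720 bp in the vehicle list (chr6:119428937-119430656) and 613 bp in the TGFβ 2 h list (chr6:119428963-119429575). No peak of Wnt5b was therefore assigned to a start site of Wnt5b itself.

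Wnt7b, a ligand of mammary and other epithelia on chromosome 15 (85365869 to 85412251, minus strand), had 7 vehicle and 5 TGFβ 2 h peaks. At its start a TGFβ 2 h-only peak was 497 bp wide and scored 721, above 29.6% of its list. In the vehicle list the nearest peak was instead at chr15:85413379-85414236, 1.56 kb upstream of the start, with a score of 707 (above 22.5%), over an exon of a noncoding transcript. The start of that transcript lies within 1000 bp of the TGFβ 2 h-only peak too, so neither peak belongs by position to Wnt7b alone. The gap between both was 950 bp, so that with a tolerance of 1000 bp they counted as shared. The remaining vehicle-only peaks of Wnt7b lay side by side 28.7 and 29.2 kb upstream, at chr15:85440885-85440963 and chr15:85441041-85441781, and both scored 654 (above 16.6%). The first of them was 79 bp wide, below the 150 bp at which the study dropped ATAC-seq regions. The other 4 peaks in each list were shared, 1 of them in an intron 3.33 kb from the nearest Wnt7b start and at the ceiling in both lists.

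Wnt9a, a canonical ligand on chromosome 11 (59120430 to 59147054), had 1 peak per list, and they did not overlap. With vehicle the peak covered the start (chr11:59120040-59120676, 637 bp, score 659, above 17.2% of the list). After TGFβ it lay in the first part of the gene, in an intron 1.25 kb from the start (chr11:59121440-59121920, 481 bp, score 770, above 35.3%). The gap was 763 bp, and this pair too counted as shared at a tolerance of 1000 bp. The base composition of the central 200 bp of these peaks was 85.0% G and C for the promoter peak and 53.0% for the intron peak. A further TGFβ 2 h-only peak at the ceiling (chr11:59197770-59198540) lay 50.7 kb beyond the gene, just outside the window.

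Wnt11, which like Wnt5a acts mostly without β-catenin, lies on chromosome 7 (105983622 to 106003705) and had 2 vehicle and 5 TGFβ 2 h peaks, none at its start. A vehicle peak of 1647 bp at the ceiling, chr7:105963475-105965121, 19.3 kb upstream, was overlapped by 2 TGFβ 2 h peaks at the ceiling, chr7:105963509-105964013 and chr7:105964165-105965109. One broad call thus stood against a pair of narrower ones, which adds to the TGFβ 2 h number without a new position. The shared peak 46.3 kb upstream scored 648 with vehicle (above 15.9%) and 913 after TGFβ (above 48.8%). The TGFβ 2 h-only peaks scored low: chr7:105953264-105953791, 30.1 kb upstream, had 584 (above 8.72%), and chr7:106052323-106052819, in an intron of the neighbour Uvrag, had 558 (above 3.64%). The latter lay 48.6 kb from the gene, just inside the window, and a further TGFβ 2 h-only peak with a score of 636 lay just outside it at 50.8 kb.

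Fzd7, a Frizzled receptor gene of a single exon on chromosome 1 (59538991 to 59543791), had a promoter peak in both lists, at chr1:59538445-59539970 with vehicle (score 1000) and chr1:59538733-59539374 after TGFβ (score 969, above 53.3%). The width was 1526 bp with vehicle and 642 bp after TGFβ, a ratio of 0.421. The vehicle-only peak at chr1:59544446-59544932, 5.67 kb from the start and downstream of the gene, scored 940, the highest of the 6 vehicle-only peaks and above 42.6% of its list. The TGFβ 2 h-only peak at chr1:59507867-59508088, 31.0 kb upstream, was 222 bp wide and scored 624 (above 16.1%).

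Ctnnb1 encodes β-catenin, the transducer of the canonical branch, on chromosome 9 (120838334 to 120869625). It had 3 peaks in each list, all shared. Its promoter peak lay 4.53 kb inside the 5′ end with vehicle and 4.39 kb after TGFβ, at a further annotated start, and the 5′ end itself had no peak. That peak was at the ceiling in both lists, at chr9:120842055-120843674 with vehicle and chr9:120842220-120843228 after TGFβ, with widths of 1620 and 1009 bp. The peak 1.92 kb upstream of the 5′ end had nearly the same width in both lists, 387 and 386 bp, but scored 959 with vehicle (above 44.0%) and 562 after TGFβ (above 4.46%). The most upstream one, 10.1 kb away with vehicle, measured 957 and 414 bp. At the 1 bp rule Ctnnb1 thus had no unshared peak, and when a reciprocal overlap of 50% was asked for it had 1 TGFβ 2 h-only peak.

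Lef1, a DNA-binding partner of β-catenin on chromosome 3 (130813389 to 130927274), had no peak at its own start in either list. Both of its TGFβ 2 h-only peaks lay in introns, 80.7 and 104.6 kb from the 5′ end. The first, chr3:130893984-130894275, was 292 bp wide and scored 560 (above 4.03%), and the second, chr3:130917830-130918090, was 261 bp wide and scored 726 (above 30.2%). No vehicle peak lay inside the gene, the nearest being 79919 and 56104 bp from these peaks. The shared region of the window belonged by position to the start of Hadh, a gene of mitochondrial fatty acid oxidation, where 1 vehicle peak of 1282 bp (chr3:130974195-130975476) met 2 TGFβ 2 h peaks of 265 and 875 bp (chr3:130974121-130974385 and chr3:130974464-130975338).

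Tcf7l2 encodes TCF4, the other β-catenin partner of the set, on chromosome 19 (55816300 to 56008144), and had 6 vehicle and 11 TGFβ 2 h peaks. All 6 vehicle peaks were shared, among them the promoter peak at chr19:55815742-55816538 (TGFβ 2 h chr19:55815800-55816408), at the ceiling in both lists and 797 and 609 bp wide. The 5 TGFβ 2 h-only peaks lay inside the gene. Of all coding genes 0.908% had 5 or more such peaks (1.17% of those with any peak), a bound chosen after the value was seen, and the Tcf7l2 window of 291.8 kb was the longest of the 10. The part of window length in this number was not tested.

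By position, the first TGFβ 2 h-only peak of Tcf7l2 (chr19:55818090-55818527, score 580, above 7.92%) lay 2.01 kb into the gene, within 1000 bp of the start of a retained-intron transcript but 1.35 kb from the nearest coding start. The next were chr19:55828726-55829140 (score 897, above 47.5%) and chr19:55843361-55843805 (score 921, above 49.5%), 12.6 and 27.3 kb into the gene. These had the highest scores of the 5. The peak at chr19:55869981-55870199, 53.8 kb into the gene, was 219 bp wide and scored 554 (above 2.84%), the lowest of the 13 TGFβ 2 h-only peaks. The last, chr19:55969913-55970182, lay 0.047 kb from an internal start site and scored 747 (above 32.6%). With the TGFβ 2 h list cut to the vehicle length, 3 of these 5 were left.

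The shared distal peaks of Tcf7l2 are given with their scores in each list, side by side. The lists differ in length and in the share of peaks at the ceiling, so a difference in score or rank between them is not a measured change in accessibility. The peak 21.5 kb upstream scored 588 with vehicle (above 7.53%) and 912 after TGFβ (above 48.7%). The intron peak at chr19:55940043-55940690 scored 636 (above 14.4%) and 974 (above 53.7%), and its width was 648 bp with vehicle and 882 bp after TGFβ, the highest width ratio of the set at 1.36. The peak 29.2 kb upstream scored 841 and 1000. The most upstream one scored 815 (above 32.8%) with vehicle and 707 (above 27.9%) after TGFβ, and in the TGFβ 2 h list it reached the 1000 bp around the start of 4930552P12Rik. The intron peak at chr19:55926047-55926717 was at the ceiling in both lists.

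Axin2, the feedback gene and a direct canonical target on chromosome 11 (108781663 to 108812097), had a shared promoter peak, at chr11:108781369-108782396 with vehicle (1028 bp, score 1000) and chr11:108781366-108782206 after TGFβ (841 bp, score 876, above 45.6%). Its TGFβ 2 h-only peak at chr11:108759343-108760047 was 705 bp wide, lay between genes 22.0 kb upstream, and had the ceiling score of 1000. It was the only unshared peak of the 10 genes at the ceiling, a level reached by 7.77% of all TGFβ 2 h-only peaks. The nearest vehicle peak was 21321 bp away. It was kept when peaks below the median score of each list were dropped and when the lists were made equally long, and it fell outside a window of 20 kb. The promoter peak held 2 TCF/LEF matches in both lists, 1 of each form and both on the minus strand, as printed with the other sequences. In whole promoter peaks of the 10 windows TCF/LEF letters occurred in 3 of 8 with vehicle and 2 of 12 after TGFβ. Over all promoter peaks the shares were 13.8% and 10.6%. The further peaks with a match were the Tcf7l2 promoter peak in both lists and the Fzd7 promoter peak with vehicle.

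As a group, the 13 TGFβ 2 h-only peaks had a median width of 438 bp and a median score of 721, beside 436 bp and 669 for all TGFβ 2 h-only peaks. Of these, 7 lay in an intron of the gene they were assigned to and 3 lay between genes, and for 12 of them the nearest coding start was that of the member gene. The 6 vehicle-only peaks had a median width of 562 bp and a median score of 656.5, beside 471.5 bp and 654 for all vehicle-only peaks. Of them 4 lay between genes and 0 in an intron of the member. Among distal peaks, 10 of 24 were TGFβ 2 h-only (41.7%, interval 24.5 to 61.2; 55.3% of all distal TGFβ 2 h peaks) and 5 of 19 vehicle-only (26.3%, interval 11.8 to 48.8; 31.6% of all distal vehicle peaks). Of all promoter peaks in the windows, 3 of 12 were TGFβ 2 h-only (25.0%, interval 8.89 to 53.2; 10.1% of all TGFβ 2 h promoter peaks) and 1 of 8 vehicle-only (12.5%, interval 2.24 to 47.1; 7.29% of all vehicle promoter peaks). The vehicle-only one was that of Wnt9a. The 3 were the Wnt7b peak and the first and last of the 5 Tcf7l2 peaks, so that 2 of them lay at further starts of a single gene. Of the 7 TGFβ 2 h peaks at the genes' own starts they made up 42.9% (interval 15.8 to 75.0). At the starts of other genes 0 of 5 TGFβ 2 h and 0 of 3 vehicle peaks were unshared.

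There were 19 pairs in which a vehicle and a TGFβ 2 h peak overlapped only each other. Narrower calls after TGFβ were found in 13 of these 19 (68.4%), beside 70.9% of all 13978 such pairs. The ratio of widths ran from 0.356 at Fbxl14 in the Wnt5b window to 1.36 in Tcf7l2, with a median of 0.843 beside 0.906 for all pairs. All 4 pairs at the genes' own starts were narrower after TGFβ. The share over all promoter pairs was not computed, so this is not known to be particular to these genes. The covered length in the 10 windows was 24.2 kb with vehicle and 22.2 kb after TGFβ, so the larger number of TGFβ 2 h peaks did not cover more sequence. Whether depth or fragment size has a part in these widths was not tested.

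**Figure D3:**
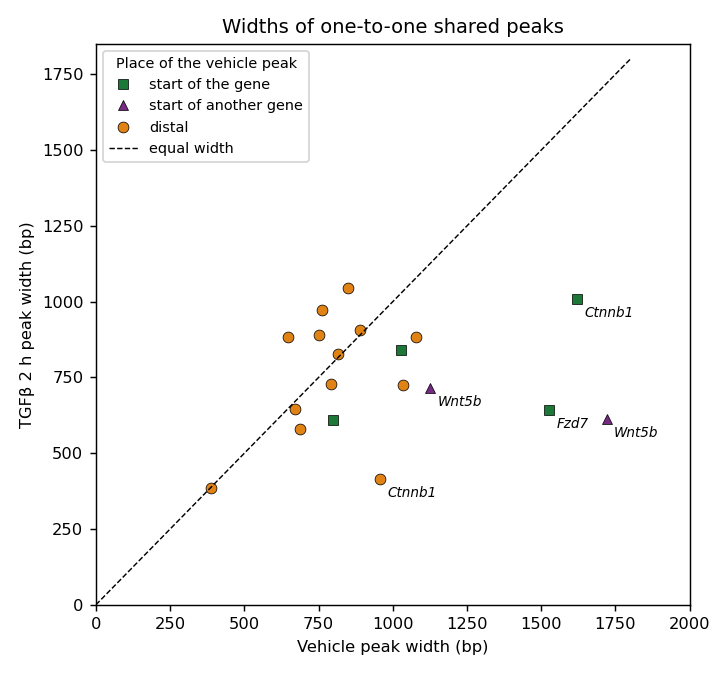
Width in bp of the vehicle peak (horizontal) and of the TGFβ 2 h peak (vertical) for the 19 pairs that overlapped only each other; the dashed line marks equal width. Squares are peaks at the gene's own start, triangles at the start of another gene and circles distal peaks, classed by the vehicle peak. The square and triangle points all lie below the line, and the farthest from it are Fbxl14 in the Wnt5b window and the promoters of Fzd7 and Ctnnb1.

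For each of the 6 motifs searched in the central 200 bp of distal TGFβ 2 h peaks, the share over all such peaks lay inside the counting interval of the share for these genes. AP-1 letters occurred in 4 of 24 (16.7%, interval 6.68 to 35.9), beside 25.5% of all distal TGFβ 2 h peaks. SMAD letters occurred in 6 of 24 (25.0%) beside 26.0%, and TCF/LEF letters in 2 of 24 (8.33%) beside 5.66%. The TEAD letters occurred in 2 of 24 (8.33%) beside 15.4%. Both CCGGAAG for ETS factors and a core string of the CTCF motif occurred in 0 of 24 (interval up to 13.8%), beside 1.72% and 1.49%. In the 10 distal TGFβ 2 h-only peaks, 1 held AP-1 letters (10.0%, interval 1.79 to 40.4) beside 27.2% of all such peaks, and 3 held SMAD letters beside 30.3%. A match is a description of the sequence and not a bound site.

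The peaks with these letters can be named. The AP-1 letters of the TGFβ 2 h-only peaks lay in the central 200 bp only for the Tcf7l2 peak at chr19:55869981-55870199, 28 bp before its midpoint, and the SMAD letters were in both Lef1 intron peaks and in the Tcf7l2 peak at chr19:55828726-55829140. The Axin2 upstream peak held its AP-1 match 108 bp before the midpoint, with 1 base between it and the TEAD letters, and the Wnt9a intron peak held its AP-1 match 172 bp after the midpoint, both outside the central 200 bp. In whole peaks, AP-1 letters occurred in 11 of 24 distal TGFβ 2 h peaks (45.8%) beside 44.8% of all. The shared Tcf7l2 intron peak printed with the sequences, chosen for its width ratio, held 3 AP-1 matches over its TGFβ 2 h interval. Of distal TGFβ 2 h peaks, the central 200 bp held TCF/LEF letters in the shared upstream peak of Wnt11 and in its TGFβ 2 h-only peak in Uvrag, and the whole shared Tcf7l2 intron peak held a match too.

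The other genes of the pathway were taken from a list of 64 ligands, receptors, secreted inhibitors, transducers, nuclear factors and feedback genes, all of which were found. Of these, 22 had more TGFβ 2 h than vehicle peaks (34.4%, beside 33.7% of all coding genes and 43.5% of those with a peak), 27 had equal numbers and 15 had fewer (23.4%, interval 14.7 to 35.1, beside 13.2% and 17.1%). A TGFβ 2 h-only peak occurred near 29 of them (45.3%, beside 40.5% and 52.4%) and a vehicle-only peak near 27 (42.2%, interval 30.9 to 54.4, beside 25.9% and 33.5%). The median number of TGFβ 2 h-only peaks was 0, beside 1 for the 10 genes described and 0 for all coding genes. These medians include genes without any peak, 5051 of the 22350 coding genes, 8 of the 64 and 0 of the 10. They are therefore not like for like, and medians over genes with a peak were not computed. A promoter peak was in both lists for 30 (46.9%, beside 43.8% and 56.6%), in the TGFβ 2 h list only for 6 (9.38%, interval 4.37 to 19.0, beside 2.46% and 3.18%), and in the vehicle list only for Ccnd1, the cyclin D1 gene. No peak at all was found near 8 of them. Among the 14 other ligands 2 had a promoter peak in both lists, beside 8 of 9 transducers and members of the destruction complex and 11 of 17 receptors.

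The highest numbers of TGFβ 2 h-only peaks among the other genes were 5 for Sfrp5 and 4 for Dkk3, which encode secreted inhibitors, and 4 for Lgr6, an R-spondin receptor. Sfrp5 had 2 vehicle and 6 TGFβ 2 h peaks, Dkk3 had 1 and 6, and Lgr6 had 4 and 8. Of the nuclear factors, Tcf7 and Tcf7l1, the paralogues of Lef1 and Tcf7l2, had 3 TGFβ 2 h-only and 0 vehicle-only peaks each. The other 4 of the 6 further nuclear factors, the cofactors Bcl9, Bcl9l, Pygo1 and Pygo2, had 0 TGFβ 2 h-only peaks, and Bcl9l and Pygo2 had 1 and 2 vehicle-only peaks. More vehicle-only than TGFβ 2 h-only peaks occurred near Wnt4, Wnt8a, Wls, Fzd2, Ryk, Lgr4, Lgr5, Dkk1, Sfrp4, Notum, Axin1, Csnk1a1, Btrc, Bcl9l, Pygo2, Znrf3 and Ccnd1. The highest number of vehicle-only peaks in that group was 2, in Dkk1, Csnk1a1, Btrc, Pygo2 and Ccnd1. Neighbouring windows can hold the same peak, and that of Wnt3a holds both Wnt9a peaks.

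**Figure D4:**
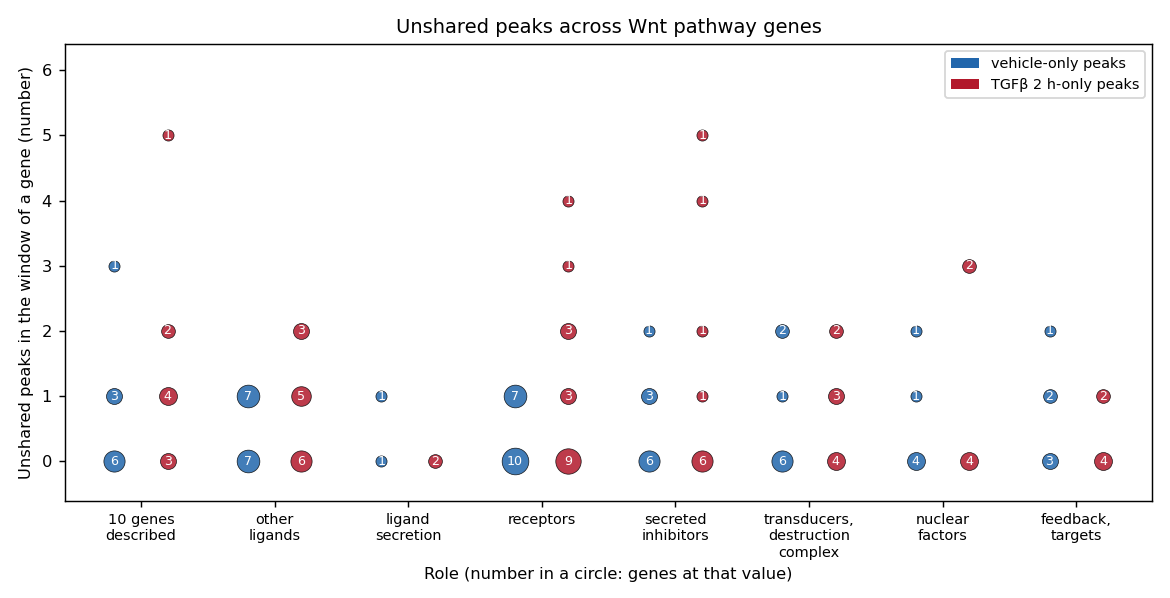
Number of vehicle-only (blue) and TGFβ 2 h-only (red) peaks per gene window for the 10 genes described and for 64 other Wnt pathway genes by role, with the number of genes at each value written in the circle. Most genes lie at 0 or 1, and the red circles at 3 and above are those of Tcf7l2, Sfrp5, Dkk3, Lgr6, Ror1, Tcf7 and Tcf7l1.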

How the data were processed

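Open chromatin was measured by DNaseI-seq in 2 NMuMG samples, whose titles gave their groups, and each had 1 deposited peak list. Per the methods, the authors aligned reads to mm9 and ran their ATAC-seq pipeline with DNaseI-seq options that are not given in the sources used here, and the submitters' notes name MACS2 2.1.2 and deepTools. The deposited score of a peak is a whole number from 540 to 1000. The methods describe a filter of ATAC-seq peaks on reproducibility between replicates. Whether the DNaseI-seq score reflects such reproducibility or signal was not established here. The series text speaks of duplicates, and separate replicate lists were not analysed here. A sample label gives the vehicle as Tris-HCl with BSA, the treatment protocol as HCl with BSA. Read depth is not in the lists, and the paper's reporting summary gives more mapped reads for the vehicle library. Depth could therefore change which peaks were called, and no measure was scaled by it.

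Rows that repeat an interval were counted as 1 peak. Gene models were those of GENCODE M1 on the same assembly (NCBIM37), and the location of a peak was read at its midpoint. Sequences were read from that assembly. The sequence and position of the TGFβ 2 h peak at the start of Wnt7b are not reported here. Comparisons used Python 3.11.15, and shares carry Wilson 95% intervals (SciPy 1.17.1). The scripts were tested on simulated data. The member genes, gene lists and motifs were chosen with earlier results of these data known. All 10 genes are named, with positions for peaks at their starts, vehicle-only peaks and the highest-scoring TGFβ 2 h-only peaks, and others of interest were added after their values were seen. Of the other pathway genes, those with the 3 highest numbers of TGFβ 2 h-only peaks or with more vehicle-only peaks are named, and the other nuclear factors and Ror1 were added after their values were seen. Alternatives changed the overlap, the filter on width or score, the list length, the unit counted, the window, the promoter and the motif window.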

Additional observations from a re-analysis of the deposited data

How the results depend on the processing

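No paired analysis was possible because vehicle and TGFβ 2 h have 1 list each. Of 60 alternative values for the main counts and shares, 44 stayed within 1.5 times the count or within the interval of the share and 16 moved. The order of the lists, more peaks and more unshared peaks after TGFβ, did not hold under every setting. When peaks below the median score of their own list were dropped (1000, the ceiling, for vehicle and 927 for TGFβ 2 h), 13 vehicle and 15 TGFβ 2 h peaks were left, with 2 vehicle-only, 3 TGFβ 2 h-only (20.0%) and 2 genes with more TGFβ 2 h peaks. Of these unshared peaks only the upstream one of Axin2 was unshared before, and the others, 2 in Tcf7l2 among them, were shared peaks whose partner was dropped. With every deposited row counted there were 123 vehicle and 113 TGFβ 2 h rows, with 16 vehicle-only and 31 TGFβ 2 h-only, so that more rows lay in the vehicle list. A window of 20 kb held 17 vehicle and 23 TGFβ 2 h peaks, with 4 vehicle-only and 9 TGFβ 2 h-only. One of 100 kb held 45 vehicle and 53 TGFβ 2 h peaks, with 12 vehicle-only and 18 TGFβ 2 h-only, and 7 genes had more TGFβ 2 h peaks. The order of the lists held in both windows. With the TGFβ 2 h list cut to the vehicle length, there were 27 peaks in each list, and 7 were TGFβ 2 h-only (25.9%), 3 of them in Tcf7l2, against 8 vehicle-only (29.6%). Shares over all peaks were computed for the main setting only, so none of these alternative values has a background. Of 86 further values, for single genes and motifs, 31 moved. The share of distal peaks that were TGFβ 2 h-only ran from 29.4% to 50.0%. With 1 list per condition the spread between replicates is unknown, and peaks at the ceiling cannot be ranked.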
